A study of Mus musculus with 18 samples.

Results

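The steps taken by transcripts of the mouse distal colon across lights off were read from 6 of the 18 arrays of a day-long series, the 3 titled 4pm and the 3 titled 8pm. At 4pm the lights had 3 h left to run, and at 8pm they had been off for 1 h. Before collection the animals had lived for 2 weeks under lights that came on at clock hour 7 and went off at 19, 12 h of each, with food always present. Both groups shared this schedule and no other treatment is named. The piece of colon lay a little above the anus and is not said to have been separated into layers, so each array holds RNA of epithelium, muscle, nerves, vessels and any neighbouring tissue that came along. Strain, sex and age are not in the labels. They do not tell separate animals from pools either, so a p-value measures the spread between these samples, which may be technical. The signals of 12870 genes were compared, each through 1 probe set of an Affymetrix mouse expression array.

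Mice rest mostly in the light and eat and move mostly in the dark, so the hours around lights off are when the colon goes from resting to receiving food residue. The colonic lining is renewed from dividing cells at the crypt base, whose daughters become absorptive colonocytes, mucus-filled goblet cells or hormone-releasing enteroendocrine cells. Beneath it lie connective tissue, an enteric nervous system and smooth muscle. Every cell also has a circadian clock, in which CLOCK and BMAL1 (gene Arntl) switch on Per, Cry and Nr1d genes whose proteins feed back on them.

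The arrays of the 2 times differed in quality and in range. The Gapdh control ratio of 3′ to 5′ signal, which goes up when RNA is degraded or copied incompletely, was 0.87, 34.3 and 2.33 in 4pm a, b and c and 0.80, 0.84 and 0.79 in 8pm a, b and c. The Actb ratio was 1.24, 4.99 and 1.80 against 1.14, 1.17 and 1.15. Each array's brightest probe set read between 15727 and 21624 at 4pm and between 24764 and 27723 at 8pm, with no overlap, although all arrays were scaled to the same trimmed mean. In the 3218 genes with the highest mean signal the median log2 difference, 8pm minus 4pm, was 0.07, and in the 3218 with the lowest it was -0.20. After quantile normalization, which gives all arrays 1 distribution, these medians were -0.01 and -0.12. The part of these array differences in any single result was not tested, and the gene groups that rose or were higher at 8pm are therefore also given after quantile normalization.

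Across lights off 253 of 12870 genes passed an adjusted p of 0.05 in the limma fit of all 18 arrays. Of these, 91 rose, 0.707% of those tested, and 162 fell, 1.26%. Every count of called list members given below is to be read beside these shares. Among all genes 5483 were higher and 7387 lower at 8pm, with a median log2 difference of -0.09. A fold of 2 was exceeded by 195 of the called genes and a fold of 4 by 37. In all 253 the 3 arrays of one time lay wholly above the 3 of the other, but so did 1511 genes higher at 8pm (11.7%) and 2514 lower (19.5%) over the whole array. With every array set to 1 median, 92 genes rose and 98 fell, so the excess of falling genes depended on the scaling. With quantile normalization 94 rose (0.73%) and 177 fell (1.38%).

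The count depended on the arrays used. Without 4pm b, which has the high control ratio, 81 genes were called, 26 that rose (0.202%) and 55 that fell (0.427%). Of these, 75 were among the 253, which is 29.6% of the longer list and 92.6% of the shorter, and all 253 kept their direction. When 4am a and 4am b, the other arrays with Gapdh ratios above 18, were left out together with it, 589 genes rose (4.58%) while 718 fell (5.58%), with 252 of the 253 among them. Leaving out 8pm a left 38 calls and leaving out 8pm c left 54.

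The evening step resembled the morning step. Between 4am and 8am, across lights on, 920 genes rose (7.15%) and 643 fell (5%), and these 6 arrays are none of the evening's. Of the 253 genes called across lights off, 247 went the same way across lights on, 97.6% against 70.2% of all genes, and 128 were called in both steps, each with the same sign in both. Across the 12870 genes, which are not independent of each other, the 2 steps correlated with r = 0.60, and with r = 0.63 without 4pm b, 4am a and 4am b. Without 4pm b alone, r was 0.39. Of the 91 genes that rose, 86 had both their 8am and 8pm means above the means of the 4 other times, a shape held by 11.9% of all genes. Of the 162 that fell, 140 had both below, a shape held by 17.2%. The called genes were chosen for a difference between 8pm and 4pm, which is part of both shapes. Their shares are therefore partly set by that choice. No label names a processing batch, so a change across lights off and a property shared by arrays of times 12 h apart cannot be told apart for these genes.

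**Figure D1:**
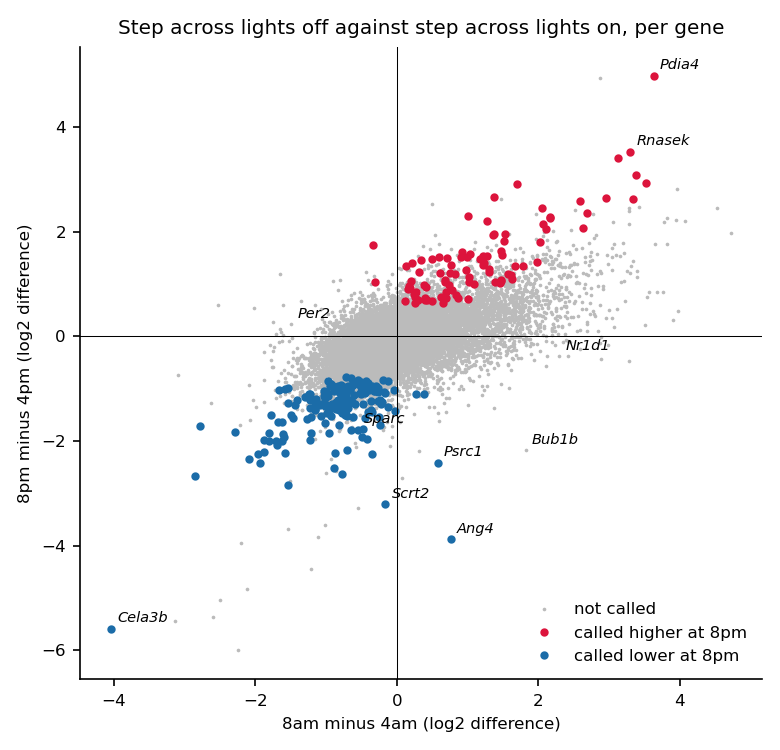
Log2 difference across lights off (8pm minus 4pm, vertical axis) against that across lights on (8am minus 4am, horizontal axis) for 12870 genes, each difference between means of 3 arrays. The 91 genes called higher (red) lie mostly at the upper right and the 162 called lower (blue) mostly at the lower left, while Ang4 and Psrc1 lie at the lower right.

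Some protein folding genes of the endoplasmic reticulum, where secreted and membrane proteins mature, were among the called rises. Pdia4, a disulfide isomerase, read 33.6, 16.6 and 48.3 in 4pm a, b and c and 1376, 1216 and 1919 at 8pm. All 8pm arrays were far above all 4pm arrays, and the log2 difference was 4.99 ± 0.58 (SE, n = 3 per time; adjusted p = 0.0005). Its 4pm signals were near the added constant of 16 and not shown to be above background, so the size depends on the constant, with 5.57 for a constant of 1 and 4.01 for 64. Its signal was again 1177 to 1561 at 8am but at most 138 at 12pm and 12am and 216 at 4am.

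Pdia3, which pairs with calreticulin to fold glycoproteins, read 4257, 3872 and 1476 at 4pm and 12193, 10862 and 13600 at 8pm, a rise of 2.06 ± 0.41 (adjusted p = 0.018). Sdf2l1, a cofactor of endoplasmic reticulum chaperones, went from 332, 183 and 354 to 1064, 918 and 2184, a rise of 2.15 ± 0.44 (adjusted p = 0.021). Without 4pm b its adjusted p was 0.082, while those of Pdia4 and Pdia3 were 0.0038 and 0.029. A dimmer second probe set of Pdia3 gave -0.15, so the sets of this gene disagreed.

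These 3 were the called genes among 21 tested members of an unfolded protein response list, beside 0.707% of all genes called higher. Of the 21, 16 were higher at 8pm, with a median of 0.28 beside -0.09 over all genes. It was 0.19 after quantile normalization and 0.43 without 4pm b. Hspa5, the main chaperone of that compartment, had a difference of 0.60 ± 0.22 (adjusted p = 0.16) and Hyou1 0.71 ± 0.41. Other folding genes of the list varied, and none was called. Creld2 had 0.83 ± 0.33 and Calr, calreticulin, 0.48 ± 0.29, both without overlap, and Manf had 0.49 ± 0.32 with overlap. Pdia6, a further disulfide isomerase, had -0.08 ± 0.44 and Hsp90b1, a chaperone, 0.13 ± 0.26. Atf4 and Ddit3, transcription factors of the stress branch, had -1.13 ± 0.37 and -1.63 ± 0.44 with arrays that did not overlap. Their direction was opposite to that of the 3 called genes, and neither passed (adjusted p = 0.11 and 0.066). The list was therefore mixed, with 5 of its members lower at 8pm. In the morning step Pdia4, Pdia3 and Sdf2l1 differed by 3.63, 2.11 and 2.07, beside 4.99, 2.06 and 2.15 in the evening.

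The promoters of these 3 genes are shown because they moved together, with Hspa5 for comparison. They are the 250 bases before the RefSeq start site in build GRCm38.p6, read 5′ to 3′ along the gene. In the first 3, capitals mark the CCAAT box on either strand, which reads ATTGG on the reverse. In Hspa5 they mark the parts of an endoplasmic reticulum stress element, CCAAT and CCACG with 9 bases between them.
Pdia4, chr6:47813513-47813762, minus strand: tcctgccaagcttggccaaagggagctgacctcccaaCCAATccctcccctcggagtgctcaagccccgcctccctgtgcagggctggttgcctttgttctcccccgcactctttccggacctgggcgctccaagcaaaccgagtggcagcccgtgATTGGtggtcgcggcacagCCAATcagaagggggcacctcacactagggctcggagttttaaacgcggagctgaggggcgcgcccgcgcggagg
Pdia3, chr2:121413652-121413901, plus strand: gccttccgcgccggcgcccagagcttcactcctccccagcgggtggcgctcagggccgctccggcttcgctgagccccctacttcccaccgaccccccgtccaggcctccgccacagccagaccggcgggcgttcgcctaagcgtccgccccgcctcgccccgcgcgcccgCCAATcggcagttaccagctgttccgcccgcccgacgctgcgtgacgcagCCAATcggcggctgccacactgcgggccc
Sdf2l1, chr16:17132384-17132633, minus strand: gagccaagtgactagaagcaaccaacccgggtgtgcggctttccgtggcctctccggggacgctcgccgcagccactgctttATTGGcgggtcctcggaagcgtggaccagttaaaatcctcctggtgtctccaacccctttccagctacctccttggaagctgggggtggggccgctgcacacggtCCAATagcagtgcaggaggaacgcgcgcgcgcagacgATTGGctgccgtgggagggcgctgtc
Hspa5, chr2:34771840-34772089, plus strand: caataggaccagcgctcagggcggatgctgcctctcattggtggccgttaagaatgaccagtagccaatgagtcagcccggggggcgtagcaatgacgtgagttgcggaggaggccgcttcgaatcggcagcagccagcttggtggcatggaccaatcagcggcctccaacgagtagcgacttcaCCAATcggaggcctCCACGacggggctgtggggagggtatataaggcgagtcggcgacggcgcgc
A CCAAT box occurred 3 times in Pdia4, 2 times in Pdia3 and 3 times in Sdf2l1, at least once in 16 of 19 promoters of the list, those of Atf4 and Ddit3 among them, and in 33.8% of all 32851 promoters of this table. The full stress element, searched on both strands, was in none of the 3 and in 6 of 19 promoters of the list (Calr, Creld2, Dnajc3, Hsp90b1, Hspa5 and Pdia6), beside 0.113% of all promoters. The CCAAT letters of that element are also counted as a CCAAT box. These are matches of letters in a short window, and both motifs were chosen after the genes' values had been seen.

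Other genes with the largest rises came from unrelated functions. Rnasek, which encodes a membrane ribonuclease, read 130, 174 and 191 at 4pm and 2278, 1635 and 2341 at 8pm, a rise of 3.54 ± 0.36 with the lowest adjusted p of all, 0.0002. Mllt1, a chromatin reader that promotes transcript elongation, read 49.3, 27.7 and 36.4 and then 538, 502 and 612, a rise of 3.41 ± 0.48. The size for Mllt1 depends on the added constant, with 3.86 for a constant of 1 and 2.60 for 64. Tm7sf2, a sterol reductase of cholesterol synthesis, read 127, 170 and 286 and then 1730, 1813 and 1521, a rise of 3.08 ± 0.47. All of these were also high at 8am, with 2014 to 2367 for Rnasek, 392 to 544 for Mllt1 and 1515 to 2666 for Tm7sf2.

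Usf1, a transcription factor that binds E-boxes, rose by 1.95 ± 0.28, from 96.7, 84.2 and 107 to 437, 377 and 432. Of its other probe sets, 1 gave 1.80 and 1 gave -0.11. Timm50, of the protein importer of the mitochondrial inner membrane, rose by 2.31 ± 0.31, from 115, 267 and 126 to 799, 884 and 863, and its second set gave 0.70. Reep6, which shapes the endoplasmic reticulum, rose by 1.95 ± 0.28. Pdia4, Rnasek, Mllt1, Tm7sf2, Usf1, Timm50 and Reep6 kept an adjusted p under 0.05 whichever of the 18 arrays was left out. Orai1, a calcium channel of the plasma membrane (2.66 ± 0.56), and Thop1, a peptidase (2.93 ± 0.64), also rose. Their lowest signals, 259 and 16.4, were both in 4pm b, and without that array their adjusted p values were 0.079 and 0.087. A second probe set of Orai1 gave 0.19.

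Gsdme, a pore-forming protein of cell death, Zfp207, a spindle protein, Tmem97, a sterol-regulated membrane protein, Cap1, which recycles actin, and Hnrnpl, a splicing factor, were also among the 12 largest rises, with differences between 2.37 and 2.92. None of these 5 passed without 4pm b, where their differences were 3.17, 2.59, 2.42, 2.11 and 2.39. A second probe set of Gsdme gave -0.58, and the 4 others of Zfp207 gave 0.70, -0.23, -1.61 and 1.56.

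**Figure D2:**
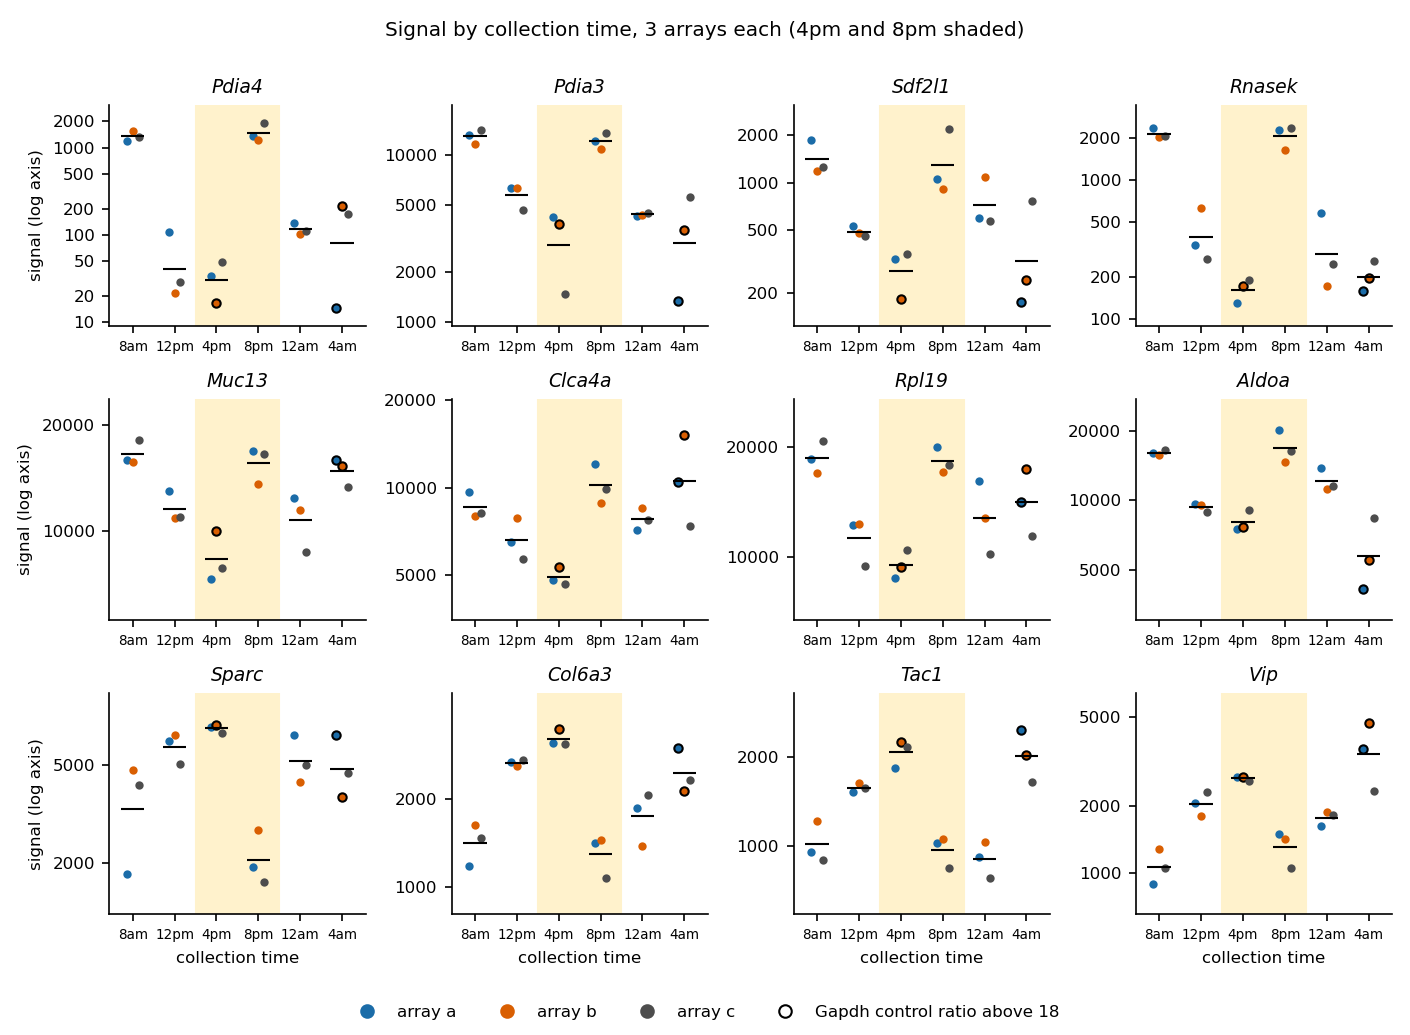
Signal (log axis) of 12 called genes in each of 18 arrays by collection time, with the 3 arrays a to c as points, the geometric mean as a line, and a black rim on arrays with a Gapdh control ratio above 18. Pdia4, Pdia3, Sdf2l1, Rnasek, Muc13, Clca4a, Rpl19 and Aldoa are higher in all 8pm arrays than in all 4pm arrays, and Sparc, Col6a3, Tac1 and Vip are lower.

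Genes of mature absorptive cells were mostly higher after lights off. Of 20 tested markers of colonocyte differentiation 18 were higher at 8pm, and the median was 0.54. Of these, 13 were higher without overlap, beside 11.7% of all genes. Muc13, a mucin bound to the surface of the absorptive cells, read 7310, 9982 and 7841 at 4pm and 16929, 13577 and 16572 at 8pm. It rose by 0.91 ± 0.17 (adjusted p = 0.014), and also without 4pm b. Lgals4, a lectin of the brush border, rose by 0.73 ± 0.17, from 14414, 13373 and 16931 to 26962, 23435 and 23438. Slc26a3, the exchanger that takes up chloride, had 0.73 ± 0.21 and Car2, a carbonic anhydrase, 0.49 ± 0.15, with no overlap and adjusted p of 0.075 and 0.092. The 2 lower members were Fabp2 (-1.30 ± 0.51, without overlap) and Cdx2 (-0.65 ± 0.40), and neither was called. After quantile normalization the median of the list was 0.07, 14 members were higher and neither Muc13 (0.51) nor Lgals4 (0.19) was called.

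Clca4a, of a family of calcium-activated chloride channel regulators, rose by 1.05 ± 0.22, from 4814, 5327 and 4646 to 12065, 8841 and 9905, and was also called after quantile normalization. Without 4pm b its difference was 1.10 with an adjusted p of 0.059. It was 1 of 17 tested genes of chloride, bicarbonate and potassium transport, 12 of which were higher at 8pm (median 0.37, and 0.16 after quantile normalization). Its morning step was -0.30, so Clca4a did not follow the shape of most genes that rose. Atp12a, a proton-potassium pump, had 0.64 ± 0.19 and was not called.

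Sodium transport was mixed. Wnk1, a kinase that controls ion transporters, was the called gene among 17, with 3798, 4503 and 4030 at 4pm and 2225, 2365 and 2305 at 8pm. It fell by 0.83 ± 0.18 on its brightest probe set, but its other sets gave 0.36 and 1.02 and their mean gave 0.18. Atp1b1, a subunit of the sodium pump, had 0.61 ± 0.18 (adjusted p = 0.091).

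Ribosomal protein genes were higher after lights off. All 18 tested ribosomal protein genes were higher at 8pm, 16 without overlap (beside 11.7% of all genes), with a median of 0.56. Rpl19 read 8758, 9385 and 10434 and then 20000, 17055 and 17839, a rise of 0.94 ± 0.19, and Rps2 (0.84 ± 0.18), Rpl10a (0.74 ± 0.18) and Rpl4 (0.63 ± 0.14) also rose. After quantile normalization the median was 0.17, 16 of 18 were higher and Rpl19 was the 1 call. None of the 18 passed without 4pm b, where the median was 0.55 and Rpl19 had 0.93. The respiratory chain list had 22 of 23 members higher (median 0.30) and no call, and after quantile normalization its median was -0.01, so its direction turned with the scaling.

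Of glycolysis, the splitting of glucose, Aldoa read 7500, 7694 and 9093 at 4pm and 20167, 14633 and 16304 at 8pm, a rise of 1.06 ± 0.21. Ldha, which makes lactate, rose by 0.75 ± 0.16. They were the 2 calls among 15 genes, beside 0.707% of all genes called higher. Of the 15, 12 were higher under both scalings (median 0.35, and 0.22 after quantile normalization). Neither Aldoa nor Ldha was called without 4pm b (adjusted p = 0.063 and 0.081) or after quantile normalization (0.15 and 0.26). Slc2a1, the glucose carrier of most cells, had 0.79 ± 0.25 with no overlap and was not called. Psma4, a proteasome subunit, rose by 1.09 ± 0.24 and was the 1 call among 22, of which 17 were higher under both scalings (median 0.30, and 0.21 after quantile normalization). It had an adjusted p of 0.083 without 4pm b and of 0.073 after quantile normalization.

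Lipid synthesis genes were mostly higher too. Of 21 members 18 were higher at 8pm under both scalings, with a median of 0.39 and of 0.26 after quantile normalization. The arrays of 11 were higher without overlap, beside 11.7% of all genes. Lss, which closes the sterol ring, read 775, 634 and 644 and then 1437, 1227 and 1765, a rise of 1.08 ± 0.26, and was the 1 call. Its adjusted p was 0.099 without 4pm b, with a difference of 1.03, and a second probe set gave -0.30. Scd1, a fatty acid desaturase, had 0.97 ± 0.30, Srebf1, a regulator of the pathway, 0.99 ± 0.36, and Fasn, fatty acid synthase, 0.92 ± 0.40, with no overlap and no call. Without 4pm b, 4am a and 4am b, 7 members were called higher, beside 4.58% of all genes. The median of the morning step was 0.06, smaller than that of the evening.

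Genes of connective tissue were lower after lights off. Of 19 genes of collagens and matrix 16 were lower at 8pm, with a median of -0.50 and of -0.63 after quantile normalization. The arrays of 9 were lower without overlap, beside 19.5% of all genes. Without 8pm c the median was -0.17. Sparc, a matrix protein of fibroblasts and vessels, read 7152, 7316 and 6796 at 4pm and 1915, 2712 and 1664 at 8pm. It fell by 1.78 ± 0.31 (adjusted p = 0.0097), and its other probe sets gave -0.64 and -0.27. Col6a3, a chain of type VI collagen, read 3120, 3495 and 3098 and then 1413, 1451 and 1071. It fell by 1.30 ± 0.21 (adjusted p = 0.0053) and stayed called with any single array left out. Both were also called without 4pm b and after quantile normalization. Col5a1 had -1.01 ± 0.28 (adjusted p = 0.073), Fn1, fibronectin, -0.87 ± 0.32 and Postn, periostin, -0.74 ± 0.27, all without overlap. In the whole tissue, fewer cells of a type and less RNA per cell cannot be told apart.

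Of the genes of enteric neurons, 2 peptide precursors fell. Tac1, the precursor of substance P, which excites gut muscle, read 1835, 2244 and 2160 and then 1029, 1056 and 844, and fell by 1.08 ± 0.20 (adjusted p = 0.014). Vip, which relaxes gut muscle and drives secretion, read 2697, 2691 and 2576 and then 1485, 1416 and 1046, and fell by 1.02 ± 0.24 (adjusted p = 0.035). Without 4pm b their adjusted p values were 0.054 and 0.091. They were the 2 calls among 15 genes of neurons and glia, beside 1.26% of all genes called lower. Of the 15, 12 were lower (median -0.40, and -0.31 after quantile normalization). Chat, which makes acetylcholine, had -0.97 ± 0.28 and Uchl1, a neuronal hydrolase, 0.57 ± 0.38.

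Endothelial genes had 9 of 11 members lower (median -0.49) with no call, but a median of 0.40 in the morning. Smooth muscle genes had no call, 10 of 16 higher and a median of 0.05, or -0.06 after quantile normalization. Summed over 6 defining muscle markers the signal was 33955 to 60926 at 4pm and 44640 to 58678 at 8pm, so the muscle share overlapped. The sum of 9 epithelial markers was 77822 to 91334 at 4pm and 109221 to 125479 at 8pm, with none of the markers under the filter on dim probe sets, and that of 4 tested neuronal markers was 3490 to 3818 and 1953 to 2515. Under the deposited scaling the epithelial sum thus stood higher and the neuronal sum lower at 8pm. The neuronal sum is mostly the signal of Vip, and Uchl1, another of its markers, had a difference of 0.57. It largely repeats the fall of Vip and does not show that neuronal markers as a group were lower. The epithelial sum was not made after quantile normalization. That scaling moved the median of the colonocyte list, which shares markers with the sum, from 0.54 to 0.07. The part of tissue makeup in the gene differences was not tested.

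Secretory cells had few calls. Tph1, the enzyme that starts serotonin synthesis in enteroendocrine cells, read 467, 440 and 508 and then 249, 254 and 179, and fell by 1.02 ± 0.23. It was the 1 call among 11 enteroendocrine genes, 7 of which were lower (median -0.34), and had an adjusted p of 0.068 without 4pm b. Among goblet cell genes Muc2, the main secreted mucin, had 0.42 ± 0.17 and Clca1 0.61 ± 0.18, and neither passed. The goblet median was 0.13, or -0.11 after quantile normalization.

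Ang4, an antimicrobial ribonuclease of secretory cells, was the 1 goblet call. It read 5360, 6641 and 392 in 4pm a, b and c and 44.2, 245 and 282 at 8pm, so 4pm c lay near the 8pm arrays. The fall was 3.87 ± 0.86 (adjusted p = 0.030), its second probe set gave -4.94, and the morning step was 0.76. Without 4pm b its adjusted p was 0.10. Saa1, an acute phase protein made by colonic epithelium, rose by 0.63 ± 0.15, and after quantile normalization its difference was 0.12 and not called.

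Among called genes the fall with the largest size belonged to a pancreatic enzyme. Cela3b, an elastase, read 8005, 13346 and 415 in 4pm a, b and c and 21.9, 136 and 56.4 at 8pm, a difference of -5.59 ± 1.36 (adjusted p = 0.043; 0.14 without 4pm b). Of 12 tested pancreatic enzyme genes 11 were lower at 8pm (median -4.20, and -2.76 without 4pm b), with Cela3b as the 1 call. The arrays of 7 were lower without overlap, beside 19.5% of all genes. The summed signal of the markers Prss2 and Cpa1 was 9340, 24428 and 206 at 4pm, 139 to 182 at 8pm and up to 46686 at other times. Ang4 was high in the same arrays, 4pm a and b, and whether the 2 are linked was not tested. Array 4pm b also has the high control ratio, while 4pm a has a Gapdh ratio of 0.87.

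Genes of cell division were mostly lower at 8pm, but none was called. Of 22 mitosis genes 19 were lower, with a median of -0.47 and of -0.40 after quantile normalization. The arrays of 10 were lower without overlap, beside 19.5% of all genes. Bub1b, a kinase of the spindle checkpoint, read 400, 293 and 300 at 4pm and 45.6, 66.1 and 71.8 at 8pm, a difference of -2.17 ± 0.56 that missed the threshold at an adjusted p of 0.054, and passed it at 0.049 after quantile normalization. Bub1, its partner, read 215, 237 and 177 and then 42.2, 77.4 and 105, with -1.36 ± 0.35 (adjusted p = 0.055). Ccnb2, a cyclin that drives entry into mitosis, had -1.34 ± 0.45, and Cenpf, of the kinetochore, -0.97 ± 0.33. Without 4pm b, 4am a and 4am b, Bub1b and Bub1 had adjusted p values of 0.0041 and 0.046, and without 4pm b alone 0.10 and 0.14. Psrc1, a spindle protein that was not on the list, fell by 2.41 ± 0.42 (adjusted p = 0.0092), from 416, 211 and 298 to 68.7, 44.8 and 23.5.

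In this group the 2 steps went opposite ways, with a morning median of 0.53. That step rests on 4am a and b, with Gapdh ratios of 36.0 and 18.2. Bub1b read 36.9, 45.4 and 346 in 4am a, b and c and 232 to 486 at 8am, so 4am c, with a ratio of 0.75, lay within the 8am range. The part of RNA quality in the opposite direction was not tested. Between the evening and the morning step 17 of 22 mitosis genes differed in sign and 16 had an unadjusted p under 0.05 for the difference, but no gene of the array passed after adjustment. DNA replication genes did not share the evening direction of mitosis, with 18 of 22 higher. None was without overlap, beside 11.7% of all genes higher and 19.5% lower. Their median was 0.27, and it was -0.09 when 8pm c was left out. Smoc2, a crypt base gene, fell by 1.09 ± 0.27, from 1354, 1289 and 1168 to 486, 639 and 648. Without 4pm b it had -1.08 and an adjusted p of 0.099, and its second probe set gave 0.44. Lgr5 (-0.56 ± 0.28) and Axin2 (-0.57 ± 0.29), stem cell and Wnt markers, were not called.

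No gene of the circadian clock was called across lights off. Among 16 tested core clock genes 4 were higher and 12 lower, with a median of -0.13, or -0.22 without 4pm b, and among 12 clock outputs 7 were higher, with a median of 0.00, or 0.18 without 4pm b. Per3, a period gene, read 913, 1101 and 981 at 4pm and 554, 725 and 513 at 8pm. The groups did not overlap, and the difference was -0.74 ± 0.22 (adjusted p = 0.087), with -1.03, -0.84 and -0.67 in its other probe sets. Without 4pm b, 4am a and 4am b its adjusted p was 0.042. Rora, an activator of Arntl, read 538, 820 and 656 and then 412, 452 and 362 (-0.68 ± 0.22). Its 5 other probe sets disagreed, at 0.55, -0.13, 0.33, 0.67 and -0.38. Ciart, a repressor of CLOCK and BMAL1, read 577, 608 and 672 and then 421, 386 and 330 (-0.69 ± 0.48).

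Wee1, a kinase that delays mitosis and is a clock output, read 772, 1005 and 752 at 4pm and 1095, 1549 and 1457 at 8pm, with no overlap and a difference of 0.68 ± 0.27 (adjusted p = 0.18). Cry1 had 0.69 ± 0.38 and Per2 0.23 ± 0.28, with overlapping arrays. Nr1d1, the repressor REV-ERBα, read 1269, 444 and 1028 and then 642, 642 and 635, so 4pm b lay below all 8pm arrays and the other 4pm arrays above them. Dbp, an output factor, read 2824, 4255 and 3970 and then 4890, 4907 and 1568, with 8pm c far below the rest.

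A few clock genes gave unlike values in the 2 steps of the day. Of 16 core clock genes 5 differed in sign between the steps, while 70.2% of all genes kept theirs. In 3 the difference had an unadjusted p under 0.05 in the limma fit. The morning step includes 4am a and b, with Gapdh ratios above 18. Nr1d1 had -0.38 in the evening and 2.29 in the morning (unadjusted p of the difference = 0.0006), Per2 0.23 and -1.49 (0.0005), and Cry1 0.69 and -1.36 (0.0014). None of these passed after adjustment (adjusted p between 0.57 and 0.63). The 8 genes with the lowest p for this difference were Scrt2, Plk1, Bub1b, Psrc1, Csrnp1, Tbccd1, Clca4a and Spc24. Plk1, a mitotic kinase, had 0.10 across lights off and 2.84 across lights on, Csrnp1, a transcription factor, 0.25 and 1.96, and Spc24, a kinetochore protein, -0.46 and 0.94.

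**Figure D3:**
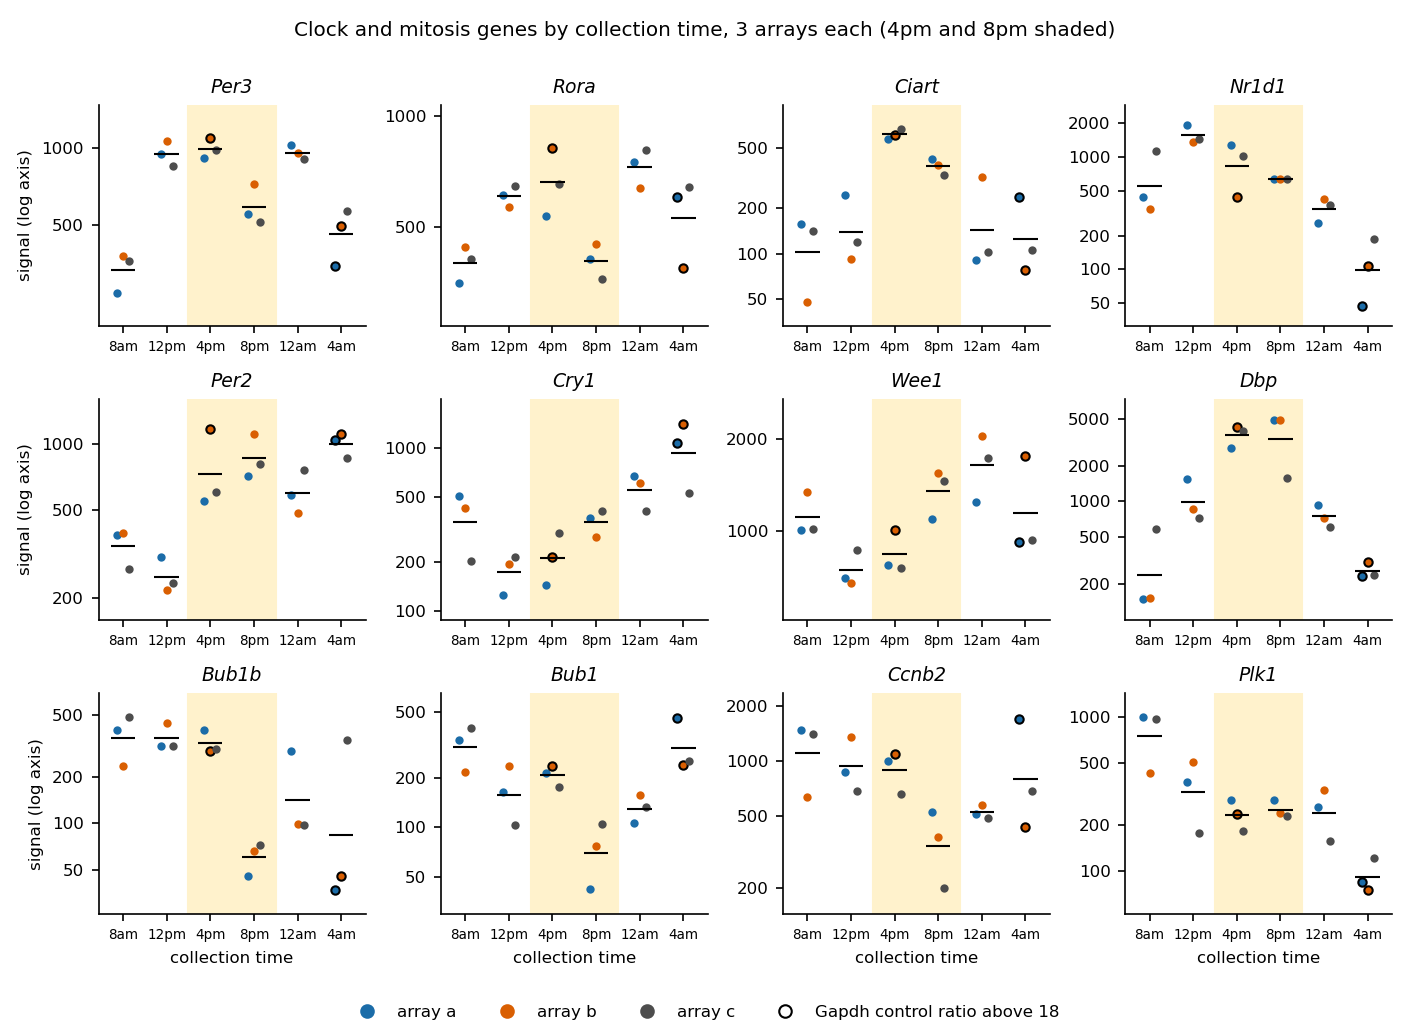
Signal (log axis) of 8 clock genes and 4 mitosis genes in each of 18 arrays by collection time, drawn as for the called genes. Per3, Rora, Ciart, Bub1b, Bub1 and Ccnb2 are lower in all 8pm than in all 4pm arrays, Wee1 is higher, and Nr1d1, Per2, Cry1, Dbp and Plk1 overlap.

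Per3 and Ciart were among 3 of 16 core clock genes that were lower at 8pm without overlap, beside 19.5% of all genes. Neither was called. Rora, the other of the 3, is not shown. The promoters of Per3 and Ciart hold elements known to carry clock control, and a link to their 8pm values was not tested. In Per3 capitals mark the D-box, TTATGTAA, bound by DBP and its relatives, and in Ciart the E-box, CACGTG, bound by CLOCK and BMAL1. The windows are the 250 bases before the RefSeq start in GRCm38.p6.
Per3, chr4:151044666-151044915, minus strand: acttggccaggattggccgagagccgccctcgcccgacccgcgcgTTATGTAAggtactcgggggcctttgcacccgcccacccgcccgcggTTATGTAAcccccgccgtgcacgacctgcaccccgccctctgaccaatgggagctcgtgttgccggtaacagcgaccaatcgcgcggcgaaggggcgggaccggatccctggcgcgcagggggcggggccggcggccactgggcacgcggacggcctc
Ciart, chr3:95882229-95882478, minus strand: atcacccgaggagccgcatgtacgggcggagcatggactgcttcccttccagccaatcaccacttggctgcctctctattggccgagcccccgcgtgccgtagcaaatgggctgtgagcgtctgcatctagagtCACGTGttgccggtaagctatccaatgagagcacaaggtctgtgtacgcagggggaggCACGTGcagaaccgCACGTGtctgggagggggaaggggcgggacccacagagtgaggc
A D-box, TTACGTAA or TTATGTAA on either strand, was found 2 times in Per3 and at least once in 0.931% of all promoters. In promoters of the core clock list it was in 1 of 22. E-boxes were in 5 of 22 promoters of that list (Bhlhe41, Ciart, Cipc, Cry1 and Per1), in 5 of 16 of the clock outputs and in 6.02% of all. Among the core clock genes with an E-box, Cry1 and Per1 were higher at 8pm (0.69 and 0.09) and Ciart and Cipc lower (-0.69 and -0.33). The Nr1d1 and Rora core motif GGGTCA was in 0 of 22, 2 of 16 and 11.6%. Over 212 promoters of 172 genes selected for naming by size, p or list, the E-box was in 9.43%, the D-box in 2.36% and GGGTCA in 9.43%, with no test made.

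Several of the largest falls outside these groups were of dim probe sets. Scrt2, a zinc finger repressor of neurons, read 289, 274 and 452 at 4pm and 14.9, 20.1 and 31.5 at 8pm. It fell by 3.20 ± 0.37 (adjusted p = 0.0005), with a difference of -3.90 for an added constant of 1 and -2.20 for 64. Its morning step was -0.16. In limma its unadjusted p for the difference between the steps, 1.8e-05, was the lowest of all genes (adjusted p = 0.23). Adarb1, an enzyme that edits adenosine in RNA, read 1013, 685 and 1837 and then 156, 164 and 154, and fell by 2.66 ± 0.32. Its second probe set gave -0.55, so the size rests on 1 set, and the morning step was -2.85. Ankrd2, a muscle ankyrin repeat protein (-2.84 ± 0.38), Rem2, a small GTPase (-2.63 ± 0.41), Cldn19, a claudin (-2.20 ± 0.34), and Dppa3, a germ cell protein (-2.01 ± 0.34), also fell. Together with Scrt2, Adarb1 and Col6a3 they stayed called with any single array left out.

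Egr3, an immediate early transcription factor, fell by 1.85 ± 0.35, from 626, 573 and 1260 to 315, 181 and 143, and was the 1 call among 27 such genes. Slc2a12, a glucose carrier, fell by 2.42 ± 0.43, and Klk1b5, a kallikrein, by 2.34 ± 0.43. Second probe sets gave -0.18 for Slc2a12 and -2.86 for Klk1b5. Khdrbs2, which binds RNA, fell by 2.24 ± 0.40. Spata3 and Tex45, named for expression in the testis, fell by 2.26 ± 0.47 and 2.23 ± 0.42. Spata3 had an adjusted p of 0.053 without 4pm b, and its second probe set gave -0.53. Several of these genes belong to other tissues, and the table carries no detection call or background level to set against their low 8pm signals. Of the 253 called genes 118 had another probe set past the filter. In 71 of these all other sets went the same way, and in 51 another set reached at least 50% of the size.

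**Figure D4:**
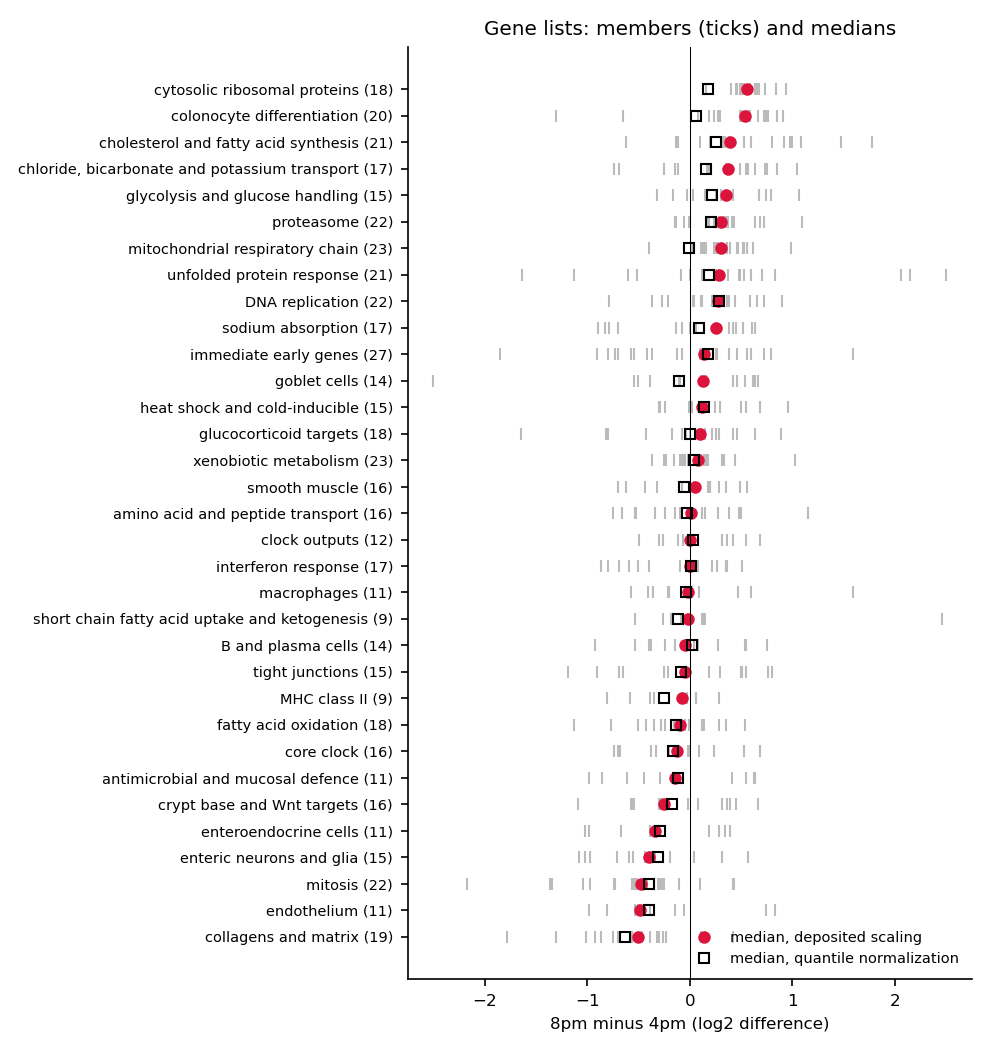
Log2 difference, 8pm minus 4pm, of the members of 33 gene lists (grey ticks, beyond 2.5 in size drawn at 2.5) with the list median under the deposited scaling (red) and after quantile normalization (open squares), and the number tested in brackets. Ribosomal, colonocyte and respiratory chain medians lie at 0.56, 0.54 and 0.30 and move to 0.17, 0.07 and -0.01, whereas collagens and matrix move from -0.50 to -0.63.

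Lists without a call in either direction included glucocorticoid targets, heat shock genes, tight junctions, aquaporins, fatty acid oxidation, interferon response, class II histocompatibility genes and the markers of B cells, T cells and macrophages. Their medians lay between -0.46 and 0.11. Glucocorticoid targets had 11 of 18 members higher (median 0.10, with the sign turned after quantile normalization), and interferon genes 9 of 17 (median 0.00). Immune markers varied between arrays of 1 time, with a sum over 3 B and plasma cell markers of 5328 to 11080 at 4pm and 4731 to 8933 at 8pm. Liver markers and 3 of 6 squamous markers were under the filter on dim probe sets.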

How the data were processed

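Total RNA of distal colon was hybridised to Affymetrix MOE430 2.0 arrays, 3 at each of 6 collection times. The authors deposited 1 table of linear signal intensity per probe set, made with GCOS per the submitters' processing notes, whose 2% trimmed mean was 500.002 in every array. It holds no detection calls. Build and annotation steps are not given in the sources used here.

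Of 45101 probe sets, 34945 had 1 gene symbol in the platform annotation, 932 several and 9160 none listed; 64 were controls. Values were log2(signal + 16). Probe sets with a mean at or above the 40th percentile (7.10) were kept (27022), and the one with the highest mean stood for each of 12870 genes. Differences and folds are on this scale, which understates changes of dim genes.

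Group means of the 6 times were fitted to all 18 arrays with limma 3.58.1 (lmFit, eBayes with trend) in R 4.3.3, with Benjamini-Hochberg adjustment over all genes and two-sided tests. The ± values are standard errors of this fit, with the spread taken from all 18 arrays, 4am a and 4am b among them. The precision is limited by 3 arrays per time. On simulated data of 12870 genes for 8pm minus 4pm, 30% of planted log2 differences of 1 and 87% of 2 were called. The simulated noise was independent between genes and equally wide in all arrays. The real arrays differ in quality, so these rates may not hold for them. Letters a to c did not pair arrays: deviations of the same letter correlated by -0.08, -0.03 and -0.05. Promoters came from RefSeq (GRCm38.p6).

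The genes named are the 12 largest called changes per direction with and without 4pm b, all tested clock genes, the 2 to 4 lowest p of each list described and the 8 lowest p of the difference between evening and morning steps. Some genes that meet this rule are not reported here. Others, such as members shown beside a list for their role, were chosen after their values were seen. The comparison and the 40 gene lists were chosen with earlier results of these data known. The counts of genes by the shape of their 6 means were added after the data had been seen. Clone names (17 of the called) were counted only.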

Additional observations from a re-analysis of the deposited data

How the results depend on the processing

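The 253 calls across lights off became 428 when every probe set was tested on its own, 452 with only the 6 arrays of 4pm and 8pm, 1307 without 4pm b, 4am a and 4am b, 3 without 4pm b and 4pm c, 4301 with array quality weights and 844 with the log2 Gapdh ratio as a covariate. The 81 calls without 4pm b became 141 with quantile normalization, 47 with the filter at the 60th percentile, 1061 with 5 arrays only, 873 with weights and 775 with the covariate. The cause of these shifts was not tested. Leaving out 1 array gave 38 (without 8pm a) to 741 (without 4am c) calls, with 107, 81 and 125 without 4pm a, b and c, 88 and 54 without 8pm b and c, and 577 and 518 without 4am a and b.

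The 0 calls for the difference between the evening and morning steps in limma (991 at an unadjusted p under 0.05) became 2618 with weights, and ranged from 0 to 1916 (without 4am c) with 1 array left out. With the replicate letter as a block (replicate block) this count was 1, the 253 became 229 and the 81 became 49. The letters are only names here, so these are no paired results.

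Under the mean of its probe sets Wnk1 reversed, to 0.18. Centring on medians moved the median of all genes without 4pm b from -0.10 to 0.09, and its calls to 48 higher and 39 lower. Counts under the other constants, no filter and no trend stayed within 1.5 times.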
